A study of Mus musculus with 4 samples.

Results

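Genes of DNA replication and nucleotide supply were followed in the tibialis anterior (TA, a fast muscle along the shin) and the heart of MG56-knockout mice, in total RNA read on Affymetrix mouse arrays. The group holds 41 genes, picked by function from the 18193 genes that the arrays name: origin licensing, the MCM2-7 helicase and its activators, the polymerases, the sliding clamp and its loader, replication protein A, Okazaki fragment joining, nucleotide supply and chromatin assembly. The choice was made with earlier results of these data known. Each gene was read from probe sets annotated to its symbol alone, of which 40 members had 87 in all. Chaf1a, a chromatin assembly subunit, had none and was not analysed here.

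MG56 is another name of Hhatl, a membrane protein of the reticulum of striated muscle. The 4 groups were TA and heart of MG56-knockout and of wild-type C57BL/6J mice at postnatal day 9. The knockout RNA was a pool from 3 mice, and the wild-type RNA a pool from a number of mice not stated here. Each group had 1 array, so no difference below has a replicate error or a test, and every ratio compares pools of RNA.

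Replication starts when the origin recognition complex, with Cdc6 and Cdt1, loads the MCM2-7 helicase onto DNA, and geminin (Gmnn) blocks a second loading in the same cycle. Cdc45 and the GINS complex then switch the helicase on, primase and the polymerases copy the strands, and ribonucleotide reductase and thymidine enzymes supply the deoxynucleotides. Most of these genes are transcribed around the start of S phase under E2F factors, whereas genes of mitosis peak later under the MuvB complexes that bind CHR elements. In the mouse, heart muscle cells leave the cell cycle in the weeks after birth, while satellite cells of muscle and fibroblasts and endothelial cells of both organs still divide. In such tissue RNA, fewer dividing cells and less RNA per dividing cell cannot be told apart.

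Promoter sequences are shown for both elements because they are the textbook difference between S-phase and mitotic genes. RefSeq windows of 300 bases on GRCm38.p6, from 250 bases before to 50 after a start, were at hand for 33 of the 41 members (38 windows) and for 58 of 71 genes of a mitotic list (63 windows). They were searched on both strands for the E2F-type motif TTTNGCGC, read on the other strand as GCGCNAAA, for the CHR motif TTTGAA, read there as TTCAAA, and for the CCAAT box, read there as ATTGG, and matches on opposite strands may overlap. The 250 bases before the start are printed for the helicase genes Mcm5 (chr8:75109259-75109508, plus strand) and Mcm6 (chr1:128359706-128359955, minus strand), the member windows with several E2F-type matches. Capitals mark every match, and in both genes 2 of the E2F-type matches overlap, 1 on each strand.
Mcm5: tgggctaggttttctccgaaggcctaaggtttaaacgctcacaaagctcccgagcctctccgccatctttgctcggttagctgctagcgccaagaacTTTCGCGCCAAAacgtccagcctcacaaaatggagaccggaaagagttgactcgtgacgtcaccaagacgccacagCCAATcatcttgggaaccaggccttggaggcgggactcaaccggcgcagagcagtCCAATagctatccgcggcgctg
Mcm6: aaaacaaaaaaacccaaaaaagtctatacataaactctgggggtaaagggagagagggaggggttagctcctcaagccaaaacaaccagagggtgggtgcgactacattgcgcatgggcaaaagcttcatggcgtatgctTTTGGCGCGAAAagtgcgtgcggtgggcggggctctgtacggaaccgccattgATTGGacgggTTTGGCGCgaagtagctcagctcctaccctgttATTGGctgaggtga

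The E2F-type match of Pola1, the catalytic subunit of polymerase alpha, began 138 bases before its start (chrX:93632260-93632319, minus strand), and that of Uhrf1, which guides maintenance methylation, 185 bases before the start of 1 of its windows (chr17:56304102-56304161, plus strand). For contrast, the CHR matches of Mcm2 (chr6:88898819-88898876, minus strand), a member, and of Kif2c (chr4:117178844-117178901, minus strand) and Ect2 (chr3:27153961-27154018, minus strand), the mitotic genes with the lowest heart ratios, are given with the match in capitals.
Pola1: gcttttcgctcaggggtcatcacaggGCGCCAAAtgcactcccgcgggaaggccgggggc
Uhrf1: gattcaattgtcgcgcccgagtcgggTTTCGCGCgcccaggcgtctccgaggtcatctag
Mcm2: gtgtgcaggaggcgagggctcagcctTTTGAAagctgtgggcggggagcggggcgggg
Kif2c: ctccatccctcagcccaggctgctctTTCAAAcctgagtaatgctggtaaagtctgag
Ect2: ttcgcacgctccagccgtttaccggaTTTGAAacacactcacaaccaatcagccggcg

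The E2F-type motif lay in 10 of the 38 member windows (26.3%) and in 6 of the 63 mitotic windows (9.52%), against 2.32% of 12666 windows of genes measured on the arrays and 1.38% of all 32851. The CHR motif was distributed the other way, in 4 member windows (10.5%) and 42 mitotic windows (66.7%), against 11.9% and 17.9%. CCAAT boxes lay in 63.2% of member windows, 73.0% of mitotic windows and 37.3% of those of measured genes. A match is a string of letters and not a shown binding site. Counting only the bases before the start, the E2F-type motif lay in 6 member windows (15.8%), in 9.52% of mitotic windows and in 1.92% of those of measured genes, so that members and mitotic genes were closer. The CHR motif then lay in 10.5%, 34.9% and 10.6%.

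**Figure D1:**
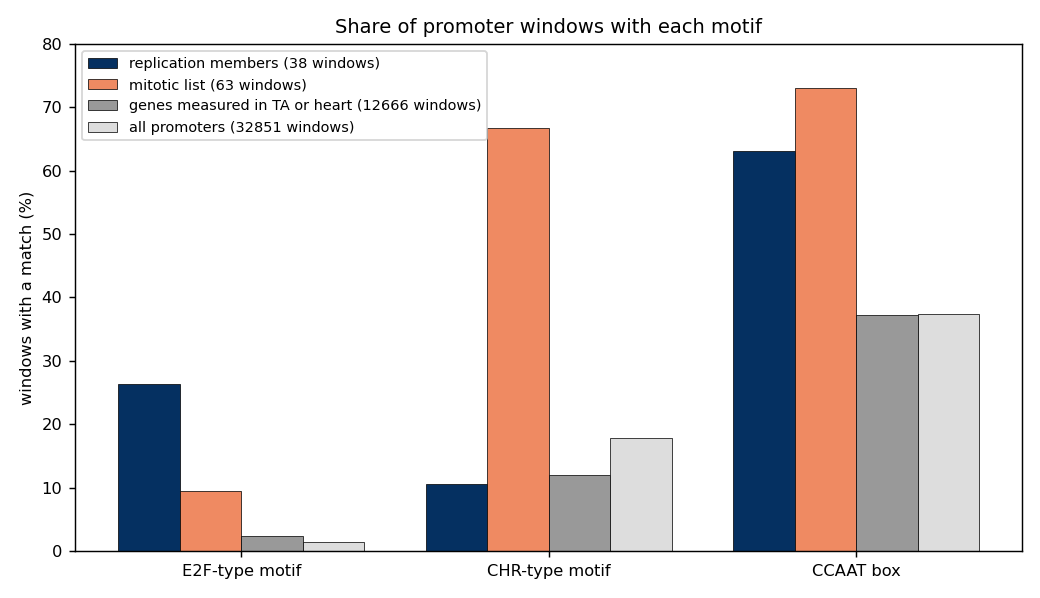
Share of 300-base promoter windows (y axis, percent) that hold each of 3 motifs (x axis) on either strand, with 1 bar for the replication members (38 windows), the mitotic list (63), the genes measured in TA or heart (12666) and all promoters (32851). The E2F-type bar is highest for the members (26.3%) and the CHR bar for the mitotic list (66.7%).

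All 4 arrays were on 1 scale as deposited, with trimmed mean signals between 496.35 and 496.83. A gene counted as measured in a comparison if either array reached 101.3, the median of all signals and the floor for lower ones, and 49.5% to 50.7% of probe sets of an array lay above it. Hhatl gave 1078 in knockout and 5491 in wild-type TA (5.09-fold lower) and 879.8 and 2109.5 in heart (2.40-fold lower), from 1 probe set whose place relative to the deletion is not given. The tissues matched their labels: the summed signal of 8 cardiac markers was 266276 in wild-type heart and 55360 in TA, and that of 10 skeletal markers 21543 and 357886. Of other cell types, no measured marker of satellite cells, fibroblasts or endothelium was 1.5-fold different in either tissue (medians between -0.24 and -0.001 on the log2 scale), and of 10 measured leukocyte markers Laptm5 was, 2.13-fold lower in heart. Of the 2 adipocyte markers measured in heart, Ucp1 of brown fat was 30.2 in knockout and 327.9 in wild-type heart (at least 3.24-fold lower), while Fabp4 was 1.06-fold higher. Of the 4 skeletal markers measured in heart, Casq1 was 207 against 566 (2.73-fold lower), while Ckm and Tnni2 were 1.09-fold and 1.06-fold higher, and in TA Myh2 alone of 10 was lower, by 1.51-fold. Summed neutrophil markers were higher in the knockout (1269.8 against 488.3 in TA, 998.8 against 739.3 in heart), but of 8 listed only 3 were measured in TA and 2 in heart. S100a8 was 5.26-fold higher in TA and 1.49-fold higher in heart, and S100a9 at least 1.94-fold higher and 1.61-fold higher. Ngp, measured in TA only, was at least 1.27-fold higher. Camp, Ltf, Elane and Mpo were under the floor in all 4 arrays. Of 12 red cell markers 3 were measured in TA and 4 in heart. The sum over the 7 with a probe set was 10167 in knockout and 15141 in wild-type TA and 12432 and 16345 in heart, most of it from Tfrc (9641.5 and 14567 in TA, 11308 and 15243 in heart). Epor read 119.2 in knockout and 183.6 in wild-type TA (1.54-fold lower). In heart it read 97.9 in knockout, under the floor, and 152.1 in wild type, and so counted as lower there too. Slc4a1, measured in heart only, was 1.07-fold lower. In TA Alas2 was 1.27-fold lower, in heart it was 1.03-fold higher, and Hba-a1, Gata1 and Klf1 were under the floor in all 4 arrays. The Y chromosome genes Eif2s3y, Kdm5d and Uty were 1.57-fold to 2.71-fold higher in both knockout pools. The part of these differences in the results below was not tested.

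The replication genes were lower in both knockout pools, more of them in heart than in TA. The members were chosen with earlier results of these data known, so their shares describe this list only. Of the 39 measured members, 17 were at least 1.5-fold lower in knockout TA (43.6%, against 4.43% of 11556 genes measured) and 22 in knockout heart (56.4%, against 4.18% of 11478). In TA 1 member, Mcm2, was as much higher (4.19% of genes were), and in heart none was (2.68% were). Their median log2 ratio was -0.54 for TA and -0.66 for heart, a 1.45-fold and a 1.58-fold deficit, where that of all genes was -0.01 and -0.002. Ratios below 0 were found for 33 members in TA and 35 in heart, against 51.2% and 50.3% of genes. At 2-fold, 3 members were lower in TA (0.917% of genes were) and 9 in heart (1.19% were). These 9 were Cdt1, Mcm4, Mcm5, Gins2, Pole, Lig1, Rrm2, Tk1 and Uhrf1. With the floor at the 75th percentile of signals (471.5), 4 of 23 measured members were 1.5-fold lower in TA and 12 of 27 in heart, against 2.42% and 1.76% of all genes under that floor.

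**Figure D2:**
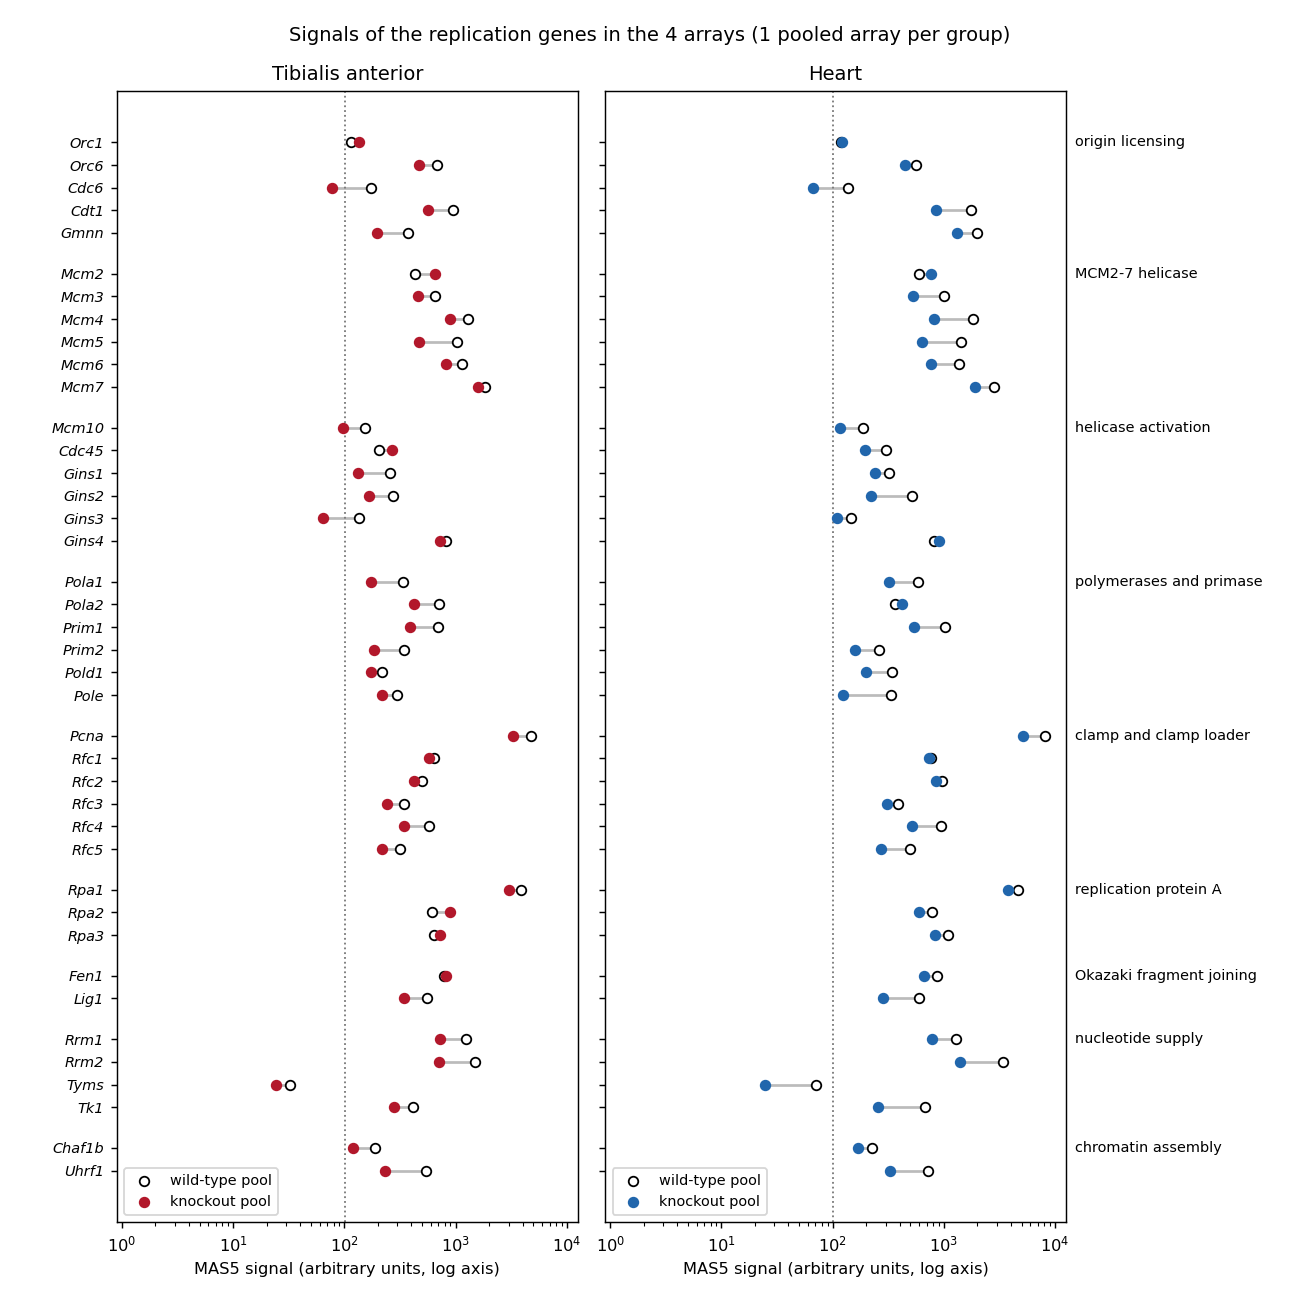
MAS5 signal (x axis, arbitrary units, log scale) of each of the 40 members with a probe set (y axis, by functional group) in TA and heart, with open circles for the wild-type pool and filled circles for the knockout pool. Most filled circles lie to the left of the open ones, and the dotted line is the floor of 101.3.

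Among the licensing genes, Cdt1, which brings the helicase to origins, had a TA signal of 563 in the knockout pool and 958 in the wild-type pool (1.70-fold lower) and a heart signal of 847 in the knockout pool and 1757 in the wild-type pool (2.07-fold lower). For geminin (Gmnn), the inhibitor of Cdt1, the TA signals were 198 and 374 in knockout and wild type (1.89-fold lower) and the heart signals 1317 and 1984 (1.51-fold lower). Where a pair of signals is given, here and below, the knockout comes first. The loading factor and its inhibitor were thus both low in both knockout pools. The loader Cdc6 was dim, with 77.3 against 172 in TA and 66.9 against 136 in heart, and since its knockout signals were under the floor it was at least 1.70-fold lower and at least 1.35-fold lower. Orc6, a subunit of the origin recognition complex, was 465 against 676 in TA (1.45-fold lower) and 449.6 against 561 in heart (1.25-fold lower), short of 1.5-fold. Orc1, another subunit, lay close to the floor in all 4 arrays, between 115 and 135, with no deficit in either tissue.

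In the MCM2-7 ring, on the brightest probe set of each gene, the lowest ratios in both tissues were those of Mcm5, whose promoter is printed above. Its signal was 470.2 in the knockout pool and 1040.0 in the wild-type pool in TA (2.21-fold lower) and 637 in the knockout pool and 1432 in the wild-type pool in heart (2.25-fold lower). Mcm4 gave 897 and 1292 in knockout and wild-type TA (1.44-fold lower) and 821 and 1823 in heart (2.22-fold lower). Mcm3 gave 462 and 657 in TA (1.42-fold lower) and 525 and 1004 in heart (1.91-fold lower). On the brightest probe set of each gene, Mcm3, Mcm4 and Mcm6 were further below the wild type in heart than in TA. In TA Mcm5 alone of the subunits was 1.5-fold lower on that probe set. However, 1 other probe set of each other subunit was too, from 1.54-fold lower (Mcm7) to 1.87-fold lower (Mcm4). The second Mcm4 probe set was further down in TA than in heart (1.64-fold lower). So was 1 of Mcm3 (at least 1.46-fold and 1.15-fold lower), while its other measured ones were further down in heart. The other measured probe set of Mcm5 was 1.79-fold lower in TA and 1.87-fold lower in heart. In heart 1 other probe set of Mcm3 (2.66-fold lower) and 1 of Mcm6 (2.27-fold lower) lay below those of Mcm5. Mcm6 had 828 against 1144 in TA (1.38-fold lower) and 766 against 1357 in heart (1.77-fold lower). Mcm7 had 1586 against 1852 (1.17-fold lower) and 1909 against 2849.8 (1.49-fold lower), just under 1.5-fold in heart. The 6 subunits had a median log2 ratio of -0.49 in TA and -0.88 in heart.

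Mcm2 was the exception in the ring, and its probe sets disagreed. The brighter one read 656 in the knockout pool and 432 in the wild-type pool in TA (1.52-fold higher) and 759.6 in the knockout pool and 594 in the wild-type pool in heart (1.28-fold higher). The other read 284.0 in knockout and 511 in wild-type TA (1.80-fold lower) and 369.8 and 667 in heart (1.80-fold lower), in the direction of the other subunits. The brighter probe set carries the array's suffix for probes that match several transcripts, as do those that stand for Mcm3, Mcm7 and Gins2. The only member counted as higher in TA therefore rests on 1 of the 2 probe sets of this gene.

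Of the factors that activate the helicase, the GINS subunit Gins2 was the lowest in heart, at 221 against 514 (2.32-fold lower), and stood at 166 against 275 in TA (1.65-fold lower). Gins1, in the same complex, was 132 against 259 in TA (1.96-fold lower) and 240.0 against 319 in heart (1.33-fold lower). Gins3 was dim and its knockout TA signal, 64.9, was under the floor, against 136 in the wild type (at least 1.34-fold lower), with 109 and 146 in heart (1.34-fold lower). The fourth subunit did not share the deficit. Gins4 read 718 and 815 in TA (1.14-fold lower) and 907 and 820.0 in heart (1.11-fold higher). Mcm10, which helps to unwind the origin, read 96.3 and 153 in TA (at least 1.51-fold lower) and 116 and 188 in heart (1.62-fold lower). Cdc45, part of the active helicase, went opposite ways, with 268 against 206 in TA (1.30-fold higher) and 196 against 304 in heart (1.55-fold lower).

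The polymerases and primase had the largest median deficit of the groups with 5 or more measured members in TA (log2 ratio -0.80), and their median in heart was -0.82. Pola1 gave 174 in the knockout pool and 339.7 in the wild-type pool in TA (1.96-fold lower) and 319.6 in the knockout pool and 586 in the wild-type pool in heart (1.84-fold lower). The primase subunit Prim1, which makes the RNA primers, gave 386 and 699.7 in TA (1.81-fold lower) and 542 and 1026 in heart (1.89-fold lower). Its partner Prim2 gave 186 and 342 (1.84-fold lower) and 160.0 and 262 (1.64-fold lower). These 3 genes of the polymerase alpha-primase complex were 1.64-fold to 1.96-fold lower in both knockout pools. The accessory subunit of that complex, Pola2, was lower in TA (420.4 against 706, 1.68-fold lower) but not in heart (421 against 360.3, 1.17-fold higher). Pole is the catalytic subunit of the leading-strand polymerase epsilon. On the brightest probe set of each member, Pole had the lowest heart ratio, at 124 against 332 (2.69-fold lower). In TA it was 217 against 297 (1.37-fold lower). Pold1, the catalytic subunit of polymerase delta, was 172 against 219 in TA (1.28-fold lower) and 198 against 338 in heart (1.70-fold lower).

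The sliding clamp Pcna, which tethers polymerases to DNA, read 3267 in the knockout pool and 4732 in the wild-type pool in TA (1.45-fold lower) and 5135 in the knockout pool and 8121 in the wild-type pool in heart (1.58-fold lower). Of the clamp loader subunits, Rfc4 was the lowest on the brightest probe set of each. It read 346 against 572 in TA (1.66-fold lower) and 516 against 949 in heart (1.84-fold lower). Rfc5 was 218 against 319 in TA (1.47-fold lower) and 274 against 497 in heart (1.81-fold lower). Rfc3 was short of 1.5-fold in both tissues (1.45-fold lower in TA, 1.25-fold lower in heart). The large subunit Rfc1 stood near the wild type, with 581 against 642 in TA (1.11-fold lower) and 728 against 759.7 in heart (1.04-fold lower), and its probe sets pointed both ways. Rfc2 was 1.19-fold lower in TA and 1.14-fold lower in heart.

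Replication protein A, which coats single-stranded DNA and also serves DNA repair, was the group with no member past 1.5-fold. Rpa1 read 3008 and 3855 in TA (1.28-fold lower) and 3742 and 4672 in heart (1.25-fold lower). Rpa2 read 884 and 616 in TA (1.43-fold higher) and 596 and 782 in heart (1.31-fold lower). Rpa3 was 1.13-fold higher in TA and 1.30-fold lower in heart, so the smaller subunits went opposite ways in the tissues. In Okazaki fragment joining the pair also differed. The ligase Lig1 was 346 against 557 in TA (1.61-fold lower) and 284 against 593 in heart (2.09-fold lower). The flap nuclease Fen1 was 825 against 794 in TA (1.04-fold higher) and 662 against 868 in heart (1.31-fold lower).

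The nucleotide supply genes had the largest deficit in heart, with a median log2 ratio of -1.29 over 3 measured genes, and -0.78 in TA. Rrm2, the S-phase subunit of ribonucleotide reductase, read 713 in the knockout pool and 1499 in the wild-type pool in TA (2.10-fold lower) and 1386 in the knockout pool and 3396 in the wild-type pool in heart (2.45-fold lower). Its large partner Rrm1 read 721 and 1234 in TA (1.71-fold lower) and 774 and 1288 in heart (1.66-fold lower). Thymidine kinase Tk1, a salvage enzyme of S phase, read 279 and 416 in TA (1.49-fold lower) and 256 and 675 in heart (2.63-fold lower). The subunit that sets reductase activity in S phase and the salvage kinase were further down in heart than in TA. Thymidylate synthase (Tyms) could not be judged, since its 4 probe sets stayed under the floor in every array, with 71.2 the highest signal. Of the chromatin genes, 2 were measured, and both were 1.5-fold lower in TA and 1 of them in heart. Uhrf1 read 230.1 in the knockout pool and 546 in the wild-type pool in TA (2.37-fold lower) and 328 in the knockout pool and 719 in the wild-type pool in heart (2.19-fold lower), the lowest TA ratio of all members. Chaf1b, which deposits histones behind the fork, was 120.1 against 190.3 in TA (1.58-fold lower) and 169 against 225 in heart (1.33-fold lower).

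**Figure D3:**
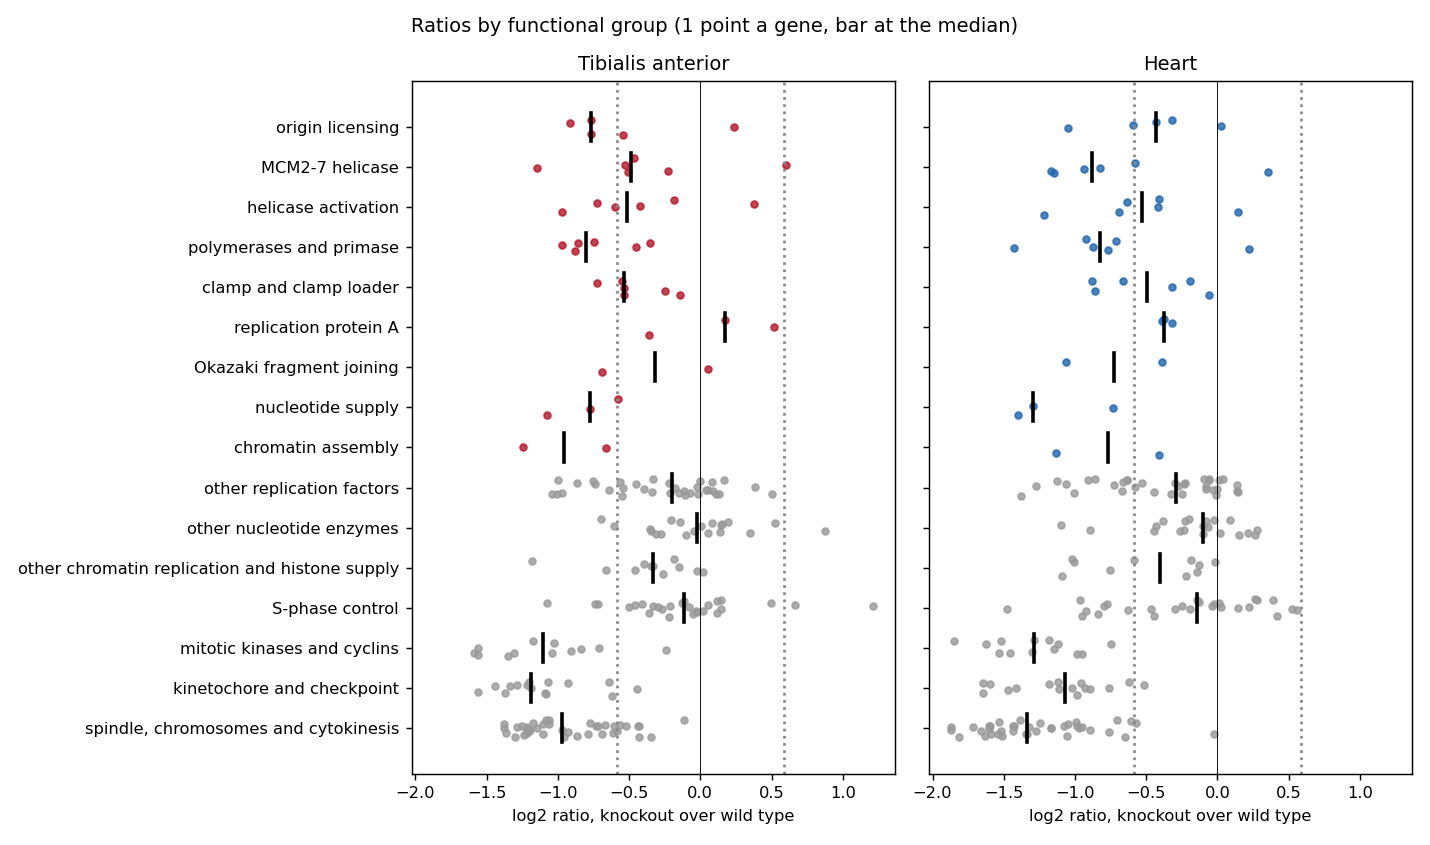
Log2 ratio of knockout over wild type (x axis) of each gene (1 point) by functional group (y axis) in TA and heart, with coloured points for the members, grey points for other lists, bars at the medians and dotted lines at 1.5-fold. The median of replication protein A is 0.18 in TA, while those of the polymerases are -0.80 and -0.82 and those of the mitotic groups between -0.97 and -1.34.

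Separate probe sets of a gene mostly pointed the same way. Of 22 members with more than 1 measured probe set, 19 had all of them on the same side of 0 in TA and 19 in heart. The exceptions were Fen1, Mcm2 and Rfc1 in TA and Mcm2, Rfc1 and Rfc2 in heart. Of the 68 measured probe sets, 58 were below 0 in TA and 62 in heart, and 29 and 40 were at least 1.5-fold lower. Sizes varied more than directions. The 3 probe sets of Rrm2 had log2 ratios of -1.22, -1.07 and -0.11 in TA and -1.28, -1.29 and -1.07 in heart.

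**Figure D4:**
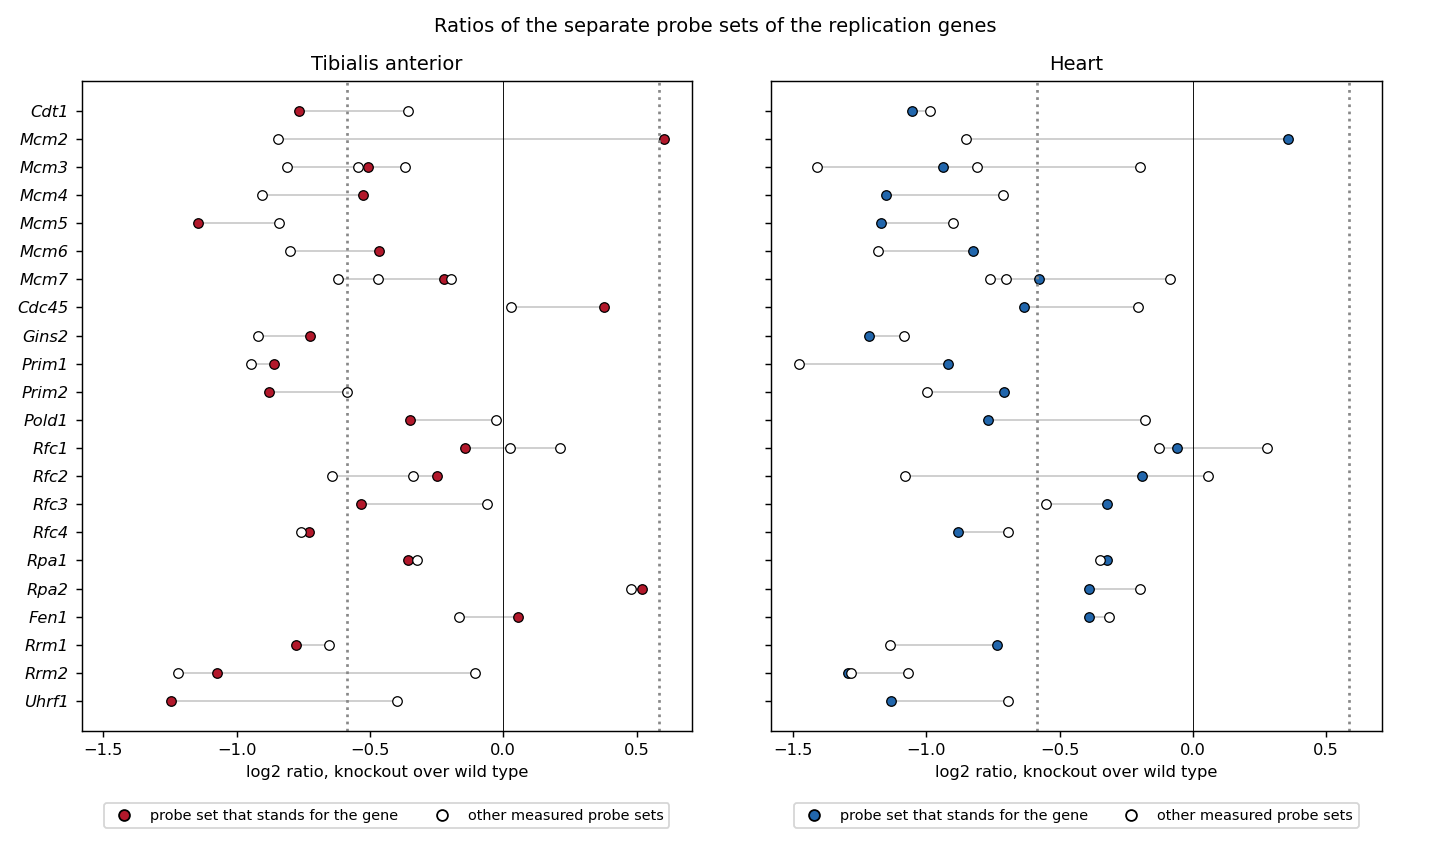
Log2 ratio of knockout over wild type (x axis) of every measured probe set of the 22 members with several (y axis) in TA and heart, with filled points for the probe set that stands for the gene, open points for the others and dotted lines at 1.5-fold. The pair of Mcm2 lies on both sides of 0 in each tissue, and most other genes have all points to the left of 0.

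Side by side, 13 of the 39 members passed 1.5-fold lower in TA and in heart (33.3%, against 1.47% of 10803 genes measured in both tissues): Cdt1, Gmnn, Mcm5, Mcm10, Gins2, Pola1, Prim1, Prim2, Rfc4, Lig1, Rrm1, Rrm2 and Uhrf1. A further 4 were lower in TA alone and 9 in heart alone, where 302 and 287 of the 10803 genes were. Ratios below 0 in both tissues were found for 31 members and for 3292 of the 10803 genes. The TA ratio was above the heart ratio for 23 members and below it for 16, where it was above for 50.0% of genes, and the median difference was 0.13. The TA ratio exceeded the heart ratio most for Cdc45 (by 1.01), Pole (by 0.98) and Rpa2 (by 0.91), and lay below it most for Pola2 (-0.97). No test of a difference between tissues was possible with 1 array a group.

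**Figure D5:**
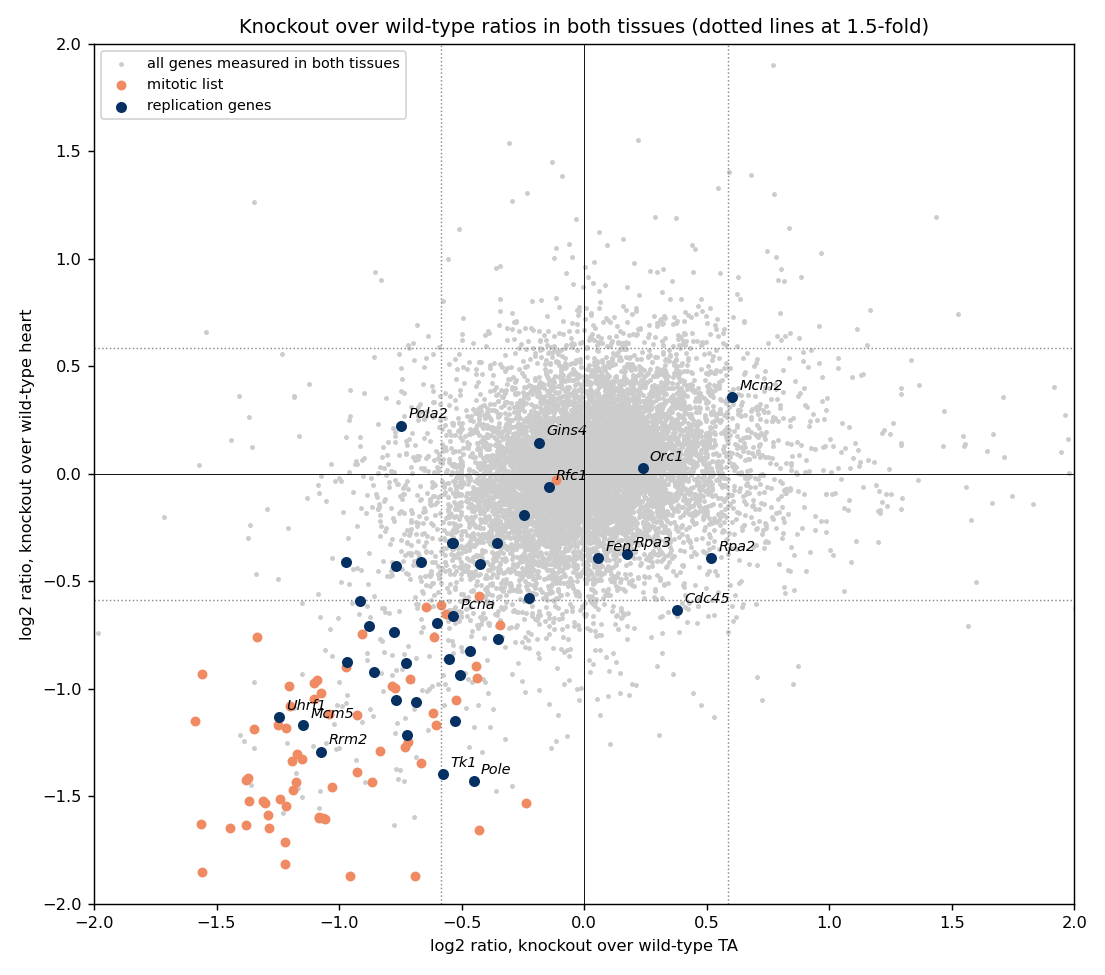
Log2 ratio of knockout over wild type in TA (x axis) and in heart (y axis) for genes measured in both tissues, with small grey points for all 10803 genes, orange points for the mitotic list and dark points for the replication members, and dotted lines at 1.5-fold. Grey points beyond 2 on either axis are not drawn. Of the 39 dark points 31 lie in the lower left quadrant, while Mcm2, Orc1, Cdc45, Rpa2, Rpa3, Fen1, Pola2 and Gins4 lie outside it.

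On these arrays the deficit was larger in mitotic genes than in replication genes, a difference that 1 array a group leaves untested. Both lists were chosen with earlier results of these data known, so the gap describes these lists only. The mitotic list has 71 genes. Of 66 measured in TA 56 were at least 1.5-fold lower (84.8%, against 4.43% of all genes). Of 68 measured in heart 65 were (95.6%, against 4.18%). None was higher in either tissue, where 4.19% and 2.68% of all genes were. The median log2 ratio of the mitotic genes stood at -1.08 in TA and -1.26 in heart, against -0.54 and -0.66 for the members. The medians were thus 0.54 and 0.60 apart. With the floor at the 75th percentile, 16 of 29 measured mitotic genes were 1.5-fold lower in TA and 29 of 41 in heart. Under that floor 2.42% and 1.76% of all genes were. At 2-fold, 38 mitotic genes were lower in TA and 47 in heart, next to 3 and 9 members. Of all genes 0.917% and 1.19% were. Lower in both pools were 56 of the 66 mitotic genes measured in both tissues (84.8%). The share was 33.3% for the members and 1.47% for all genes. The gap was smaller with the median over all probe sets of a gene (0.36 and 0.44) and smallest without probe sets whose suffix marks shared probes (0.22 and 0.39).

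The 3 groups of the mitotic list had medians of -1.11 in TA and -1.29 in heart (kinases and cyclins), -1.19 and -1.07 (kinetochore and checkpoint) and -0.97 and -1.34 (spindle, chromosomes and cytokinesis). At least 2-fold lower were 66.7%, 73.3% and 48.7% of their measured genes in TA and 76.9%, 56.2% and 71.8% in heart. Among mitotic kinases and cyclins, the chromosomal passenger kinase Aurkb was 3.01-fold lower in TA and 2.22-fold lower in heart, and cyclin A2 (Ccna2), which acts in S phase as well, 2.48-fold lower and 2.87-fold lower. Among kinetochore genes, Nuf2, which holds microtubules, was 2.72-fold lower and 3.13-fold lower. Among spindle and cytokinesis genes, the cytokinesis regulator Ect2 was 1.94-fold lower and 3.65-fold lower, and the microtubule depolymerase Kif2c 1.61-fold lower and 3.66-fold lower. Only Mcm5, Rrm2 and Uhrf1 of the members in TA, and 9 members in heart, reached the 2-fold that 57.6% and 69.1% of measured mitotic genes passed.

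Promoter motif and ratio were set side by side within the members. The 10 members with an E2F-type match (Cdt1, Lig1, Mcm3, Mcm5, Mcm6, Mcm7, Orc1, Pola1, Rfc3 and Uhrf1) had median log2 ratios of -0.61 in TA and -0.91 in heart, with 5 and 7 of them at least 1.5-fold lower. The 21 measured members with windows but no such match had medians of -0.54 and -0.43, with 8 and 10 lower. For the 8 members without a window the medians were -0.62 and -0.65, with 4 and 5 lower. The 4 members with a CHR match were Cdc45, Fen1, Gins3 and Mcm2, of which 0 passed 1.5-fold lower in TA and 1, Cdc45, in heart. These counts are few and describe the windows at hand only, and other forms of an E2F site were not searched for.

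Replication genes outside the 41 were less uniformly low. Of 34 measured further replication factors 8 were at least 1.5-fold lower in TA (23.5%, against 4.43% of all genes) and 12 in heart (35.3%, against 4.18%). They were led in TA by Dbf4 (2.05-fold lower), which activates the initiation kinase, Donson (2.01-fold lower) and the checkpoint adaptor Clspn (143 against 286), and in heart by the ubiquitin ligase subunit Dtl (2.60-fold lower), Clspn (2.42-fold lower) and the kinase Cdc7 (2.18-fold lower). Of 20 further nucleotide enzymes 2 were lower in each tissue, a share of 10% that is nearer to that of all genes: deoxycytidine kinase Dck in both (1.62-fold lower and 2.14-fold lower), Dut in TA (1.52-fold lower) and Nme1 in heart (1.86-fold lower), while Nme1 was 1.83-fold higher in TA. Of 11 genes of chromatin replication and histone supply measured in TA, Hells (2.27-fold lower) and Atad2 (1.58-fold lower) were lower, and of 10 in heart Hells, Asf1b, Atad2, Dnmt1 and Mms22l were (18.2% and 50.0%). Over all 3 lists the median log2 ratio stood at -0.18 in TA and -0.23 in heart.

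Regulators of S phase mostly stayed within 1.5-fold of the wild type in TA. Of 27 measured, 3 were at least 1.5-fold lower there (11.1%, against 4.43% of all genes): the repressor E2f7 (2.11-fold lower), the pocket protein gene Rbl1 (1.67-fold lower) and the inhibitor Cdkn2c (1.65-fold lower). Higher were 2, where 4.19% of all genes were, the inhibitor Cdkn1a (2708 in the knockout pool and 1167 in the wild-type pool, 2.32-fold higher) and Myc (588 in the knockout pool and 371 in the wild-type pool, 1.58-fold higher). In heart 8 were lower (29.6%, against 4.18% of all genes) and none higher (2.68% were), led by E2f7 (2.78-fold lower), the ubiquitin ligase subunit Skp2 (1.95-fold lower), E2f8 (1.93-fold lower) and cyclin E2, Ccne2 (1.90-fold lower). Cdkn1a in heart read 856 in the knockout pool and 938 in the wild-type pool (1.09-fold lower). The regulators had median log2 ratios of -0.12 (TA) and -0.15 (heart).

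Between the wild-type tissues, replication genes read lower in TA than in heart. Of the 39 members 14 were at least 1.5-fold lower in TA (35.9%, against 18.0% of 11887 genes), 1, Pola2, was higher (706 in TA and 360.3 in heart, 1.96-fold higher), where 14.5% of genes were, and 35 were below 0 (55.1% of genes were). The median log2 ratio was -0.40, against -0.07 over all genes. At 2-fold, 2 members were lower (7.79% of genes were): Gmnn, with 374 in TA and 1984 in heart (5.30-fold lower), and Rrm2, with 1499 and 3396 (2.27-fold lower). By contrast Orc1, Gins4, Rrm1 and Lig1 were within 1.06-fold of each other in the tissues. Of 68 mitotic genes 32 were at least 1.5-fold lower in wild-type TA (47.1%), with a median of -0.56. Organ and array cannot be told apart in this comparison.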

How the data were processed

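Total RNA of 4 pools was measured on Affymetrix mouse arrays, 1 array a group. The values the authors deposited are linear signal intensities of probe sets. MAS5 made them, per the submitters' processing notes, with its version and scaling target not given in the sources used here. Of 45037 probe sets, 34945 had 1 gene symbol in the platform's annotation and were used, 932 had several and 9160 none, and 34741 matched a RefSeq gene by identifier.

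From the signals as deposited, log2 ratios were computed with Python 3.11.15, numpy 2.4.6 and pandas 2.3.3. Signals under the median of all signals, 101.3, were raised to it, which makes a ratio a bound ("at least"). The probe set with the highest mean signal among those measured stood for a gene, and 1.5-fold counted as lower or higher. With 1 array a group there is no test, and the number of arrays limits the precision. The ratio code was tested on simulated data.

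The members and lists were chosen with earlier results of these data known. All 41 members could be named, and from each other list up to 4 genes with the largest ratios each way, or every gene behind a count of 5 or fewer. Promoter windows came from RefSeq (GRCm38.p6). Alternatives were other scalings, floors, probe set rules and a 2-fold limit.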

Additional observations from a re-analysis of the deposited data

Results flagged for a closer look

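For 6 of 39 members the knockout ratio lay on opposite sides of 0 in the tissues. Of all 10803 genes measured in both tissues 4333 did so, a larger share. Whether the tissues differ was not tested, since each group has 1 array. As TA log2 ratio minus heart log2 ratio, the differences were 1.01 for Cdc45, 0.91 for Rpa2, 0.55 for Rpa3 and 0.45 for Fen1, all with the higher ratio in TA. Gins4 (-0.33) and Pola2 (-0.97) had the higher ratio in heart. Of these, Pola2 was 1.68-fold lower in TA and Cdc45 1.55-fold lower in heart, and all other ratios of the 6 genes were under 1.5-fold. Both measured probe sets of Rpa2 were above 0 in TA and below 0 in heart. So were both of Cdc45, but its second lay close to the floor and was almost unchanged in TA. That probe set had log2 ratios of 0.03 in TA and -0.20 in heart. Those of Fen1 lay on both sides of 0 in TA.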

How the results depend on the processing

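No paired analysis was possible because the labels carry no replicate numbers and each group has 1 array, and for the same reason no array could be left out. Under 9 alternatives, the members' median log2 ratio stayed between -0.58 and -0.36 in TA, between -0.70 and -0.52 in heart and between -0.49 and -0.33 between the wild-type tissues. The 1.5-fold lower members numbered 4 to 18, 12 to 24 and 9 to 15. With the floor at the 75th percentile they were 4 in TA (median -0.36), 12 in heart and 9 between wild-type tissues, the mitotic genes 16 (median -0.73) and 29 (median -0.99), and the other replication genes and regulators 4 and 10. Fewer genes are measured under that floor. At 2-fold the members numbered 3, 9 and 2, and the other replication genes and regulators 5 and 10. The mitotic medians were -0.92 in TA and -1.08 in heart with the median over probe sets, and -0.80 and -1.08 without probe sets named for shared probes. The gap between the medians of members and mitotic list in TA was 0.53 with quantile normalization over the arrays or within a tissue, with a lower floor (25th percentile) and with none, 0.37 with the floor at the 75th percentile, 0.36 with the median over probe sets and 0.22 without shared-probe sets. In heart it was 0.63 and 0.61 with the quantile normalizations, 0.59 and 0.47 with the floors at the 25th and 75th percentile, 0.44 with the median over probe sets, 0.58 with the probe set brightest in the tissue and 0.39 without shared-probe sets. Mcm2 in TA was reversed, at -0.12 with the median over probe sets and -0.85 without shared-probe sets, because its probe sets disagree. Of 999 values of single genes under an alternative, 936 kept their direction and their side of 1.5-fold. With 1 array a group, ratios of dim genes near the floor are the least precise.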
